A study of Mus musculus with 12 samples.

Results

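The nuclear-encoded subunits of mitochondrial complex I were examined in the arcuate nucleus (ARC) of the hypothalamus, in wild-type (WT) mice and in mice homozygous for the R299Q mutation of the γ2 subunit of AMPK (Homo). Members were all genes of the deposited expression table named *Ndufa*, *Ndufb*, *Ndufc*, *Ndufs* or *Ndufv* with a number, together with *Ndufab1*. This rule used names only and found 37 of 38283 genes, each on 1 row. *Ndufb1* had no row under that symbol and was not analysed here. All 37 members had a mean level of at least 1 FPKM (fragment number scaled to transcript length and to the size of the library), the limit for testing, as did 14017 genes in all.

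The 12 libraries came from 5 WT and 7 Homo mice, 1 library per mouse. All were C57BL/6 males aged 8 weeks that fed freely. Homo mice carried the mutation on both copies of *Prkag2*, the gene of γ2, as a knock-in present in every tissue. The ARC was cut from brain sections by laser capture, and its RNA was amplified before sequencing. Such a sample holds every cell type of the captured area, and fewer cells of a type cannot be told apart from less RNA per cell.

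Complex I oxidises NADH and passes the electrons to ubiquinone while it pumps protons across the inner mitochondrial membrane. Its N module binds NADH, its Q module passes the electrons on to the ubiquinone site, and its membrane arm pumps. A conserved core is shared with bacteria, the pumping subunits of the core are encoded by mitochondrial DNA, and the accessory subunits around the core are needed for its assembly and stability. Neurons, including the *Agrp* and *Pomc* neurons of the ARC that control feeding, depend strongly on this enzyme for ATP.

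Libraries fell into 2 sets by the number of genes with a value above 0. WT 1, WT 2 and Homo 1 to 5 (7 libraries) had 15742 to 16467 such genes, and WT 3, WT 4, WT 5, Homo 6 and Homo 7 (5 libraries) had 18141 to 18635. No label says what separates the sets. The summed level of 8 ARC neuron markers, among them *Agrp*, *Npy* and *Pomc*, was 1284 to 4513 FPKM in WT and 3405 to 5158 FPKM in Homo, lowest in WT 3. This sum includes *Agrp* and *Npy*, which the paper reports as raised in Homo. General neuron markers summed to 562 to 759 FPKM in WT and 535 to 863 FPKM in Homo, lowest in Homo 3. Sums for astrocytes, endothelium and ependyma overlapped between genotypes. Summed pituitary hormone genes were highest in WT 3, at 114 FPKM, against a median of 0.922 FPKM in WT, and reached 56.4 FPKM in Homo. Summed oligodendrocyte markers were 64.5 to 508 FPKM in WT, highest in WT 5, and 121 to 363 FPKM in Homo. Tanycyte markers summed to 24.0 to 38.9 FPKM in WT, highest in WT 3, and 8.68 to 26.2 FPKM in Homo, and microglia markers to 20.5 to 37.7 FPKM in WT, lowest in WT 3, and 28.3 to 49.2 FPKM in Homo. The part of these markers in the results below was not tested. The mutation is a point mutation, so the level of *Prkag2*, 7.73 to 22.5 FPKM in WT and 8.61 to 24.0 FPKM in Homo, does not check the genotype.

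Complex I subunits were abundant transcripts in the ARC. The median of their mean levels was 134 FPKM, against 7.57 FPKM over all genes tested. On this scale, which is per transcript length, members spanned 31.6-fold, from *Ndufs1* at 15.5 FPKM to *Ndufa3* at 488 FPKM. The 7 core subunits had a median level of 75.4 FPKM and the 29 accessory subunits of the 3 modules one of 164 FPKM. By module, the median level was 111 FPKM for the 8 N members, 129 FPKM for the 8 Q members and 148 FPKM for the 20 membrane arm members.

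Between genotypes, 35 of 37 members had a higher mean log2 level in Homo, and the exceptions, *Ndufb9* and *Ndufa12*, differed by -0.07 and -0.0086. Over all genes tested the mean was higher in Homo for 49.3%. The median log2 fold change of the members was 0.39 and that of all genes tested -0.0062. Without WT 3, 31 of 37 members were higher, with a median of 0.22 against -0.05 over all genes. Of the 37, 7 were more than 1.5-fold higher, while 6 lay within 10% of equality. Over the 12 libraries together, the plot of fold changes by module shows the difference spread over all modules. The median was 0.26 for the core subunits and 0.42 for the accessory subunits, and 0.12 and 0.22 without WT 3.

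Single members did not pass adjustment over all genes tested. With limma and Benjamini-Hochberg adjustment, 0 members had an adjusted p under 0.05, which 0.00713% of all genes tested reached (1 gene), and the members' adjusted p lay between 0.666 and 0.996. At an unadjusted p under 0.05, 13 members were higher and 0 lower in Homo, against 3.05% of all genes tested higher and 2.5% lower. Every Homo library was above every WT library for 2 members, *Ndufb5* and *Ndufa5*, against 0.128% of all genes tested. Another 22 members overlapped between genotypes yet had at least 6 of 7 Homo libraries above the WT median, which makes 24 members in all, 16 of them with 7 of 7, against 15.1% of all genes tested with 6 or 7. Leaving out WT 3 lowered the count of 13 to 5 (1.77% of all genes tested), leaving out WT 5 lowered it to 7 (2.76% of all genes), and leaving out WT 1 raised it to 21 (3.91% of all genes).

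**Figure D1:**
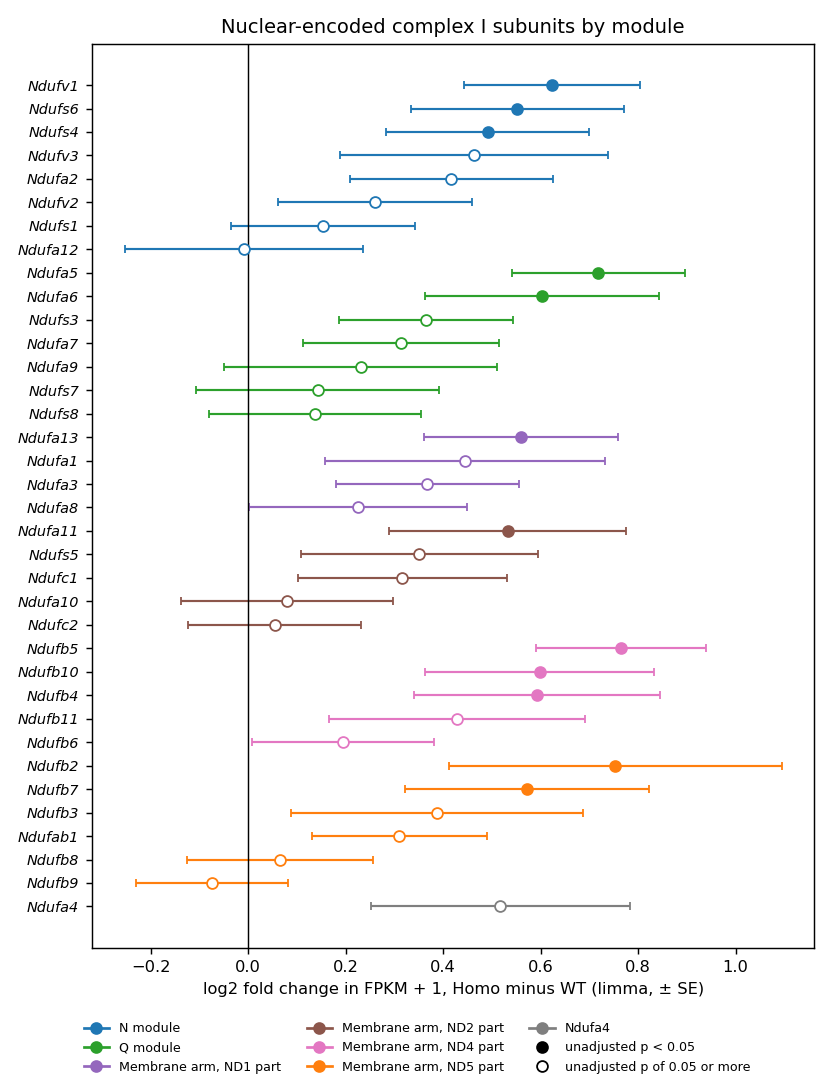
Log2 fold change in FPKM + 1 (Homo minus WT, x axis, limma, bars ± SE) of 36 complex I subunits (y axis), coloured by module and sorted within it, with filled points for an unadjusted p under 0.05. Of the 36 points 34 lie to the right of 0, and the 12 filled points come from the N module, the Q module and all 4 parts of the membrane arm.

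*Ndufb5*, an accessory subunit with a membrane helix in the distal part of the membrane arm, and *Ndufa5*, an accessory subunit of the Q module in the matrix, had the smallest p of the members. The gene body of *Ndufb5* lies at chr3:32736990-32751566 (plus strand) and that of *Ndufa5* at chr6:24518666-24528013 (minus strand, GRCm38, GENCODE M21). Promoter sequence is printed for *Ndufb5*, for *Ndufv1*, the NADH-binding subunit described with the N module, and for *Ndufb2*, whose difference between genotypes varied most with library set. Sequences are from RefSeq (GRCm38.p6), 5′ to 3′ on the gene's strand. Each covers those of the 250 bases before the RefSeq start that lie outside the gene body of GENCODE, and none is printed for *Ndufa5*, whose windows lie wholly inside its gene body. Capitals mark matches, on either strand, to 4 motifs of factors known as regulators of nuclear genes for mitochondria, YY1 (AANATGGC), NRF1 (GCGCANGC), ERRα (AAGGTCA) and the ETS motif of GABPA (CCGGAAG).
Ndufb5, chr3:32736813-32736989: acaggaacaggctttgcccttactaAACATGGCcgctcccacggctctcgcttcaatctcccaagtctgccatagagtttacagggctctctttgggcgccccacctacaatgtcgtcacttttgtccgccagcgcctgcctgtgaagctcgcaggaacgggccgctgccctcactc
Ndufv1, chr19:4012807-4013005: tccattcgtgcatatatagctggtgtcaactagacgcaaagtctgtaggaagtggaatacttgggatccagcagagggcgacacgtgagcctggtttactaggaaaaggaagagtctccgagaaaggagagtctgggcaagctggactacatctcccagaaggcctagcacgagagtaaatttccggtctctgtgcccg
Ndufb2, chr6:39592315-39592564: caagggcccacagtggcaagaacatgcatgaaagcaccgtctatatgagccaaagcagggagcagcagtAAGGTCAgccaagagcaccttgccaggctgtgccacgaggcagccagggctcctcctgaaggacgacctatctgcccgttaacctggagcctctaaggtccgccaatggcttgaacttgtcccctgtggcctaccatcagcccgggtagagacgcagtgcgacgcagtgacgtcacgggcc

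The sequence of *Ndufb5* held YY1 letters, that of *Ndufb2* held ERRα letters and that of *Ndufv1* held none of the 4 motifs. Shares were counted over whole windows of 250 bases, some of which run into the gene body of GENCODE. Promoter windows were listed for 33 members (35 windows). NRF1 letters occurred in 25.7% of the members' windows (9 of 35), 8.29% of all 32851 windows and 15.9% of windows of tested genes. The members were *Ndufa11*, *Ndufa5*, *Ndufa6*, *Ndufa8*, *Ndufb4*, *Ndufc2*, *Ndufs5* and *Ndufs6*. YY1 letters occurred in 14.3% (5 of 35), 3.91% and 4.24%, in *Ndufa7*, *Ndufb10*, *Ndufb11*, *Ndufb5* and *Ndufs8*. ETS letters occurred in 8.57% (3 of 35), 6.91% and 12.8%, in *Ndufb6*, *Ndufb7* and *Ndufs3*. ERRα letters occurred in 8.57% (3 of 35), 4.08% and 2.77%, in *Ndufb2*, *Ndufb4* and *Ndufs5*. None of the matches in the printed sequences overlapped another, and no binding was measured here.

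*Ndufb5* had 187, 154, 110, 193 and 118 FPKM in WT 1 to 5 and 211 to 300 FPKM in Homo (median 254). The lowest Homo library was above the highest WT library, in both library sets. Means were 152 ± 38.3 FPKM (SD, n = 5) and 255 ± 31.4 FPKM (SD, n = 7), a log2 fold change of 0.77 (SE 0.17, limma adjusted p = 0.666). An exact permutation test of this gene alone, two-sided, gave p = 0.0013, the smallest it can give. Over the 210 arrangements that keep each library in its set, the exact p was 0.0048, again the smallest possible. A gene without overlap has such an exact p nearly by construction, so both values restate the lack of overlap and add nothing to it.

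*Ndufa5* was nearly as distinct, with 293, 250, 149, 266 and 186 FPKM in WT 1 to 5 and 308 to 409 FPKM in Homo (median 384). WT 3 was the lowest library and WT 1 the highest of the WT libraries. The means were 229 ± 59.6 and 368 ± 38.7 FPKM (SD), the log2 fold change 0.72 (SE 0.18, limma adjusted p = 0.666), and the exact permutation p 0.0013 over all splits and 0.0048 within sets. These exact p again restate the lack of overlap. Without WT 3 the log2 fold change was 0.66 for *Ndufb5* and 0.58 for *Ndufa5*, and without WT 3 and WT 5 it was 0.51 and 0.44.

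**Figure D2:**
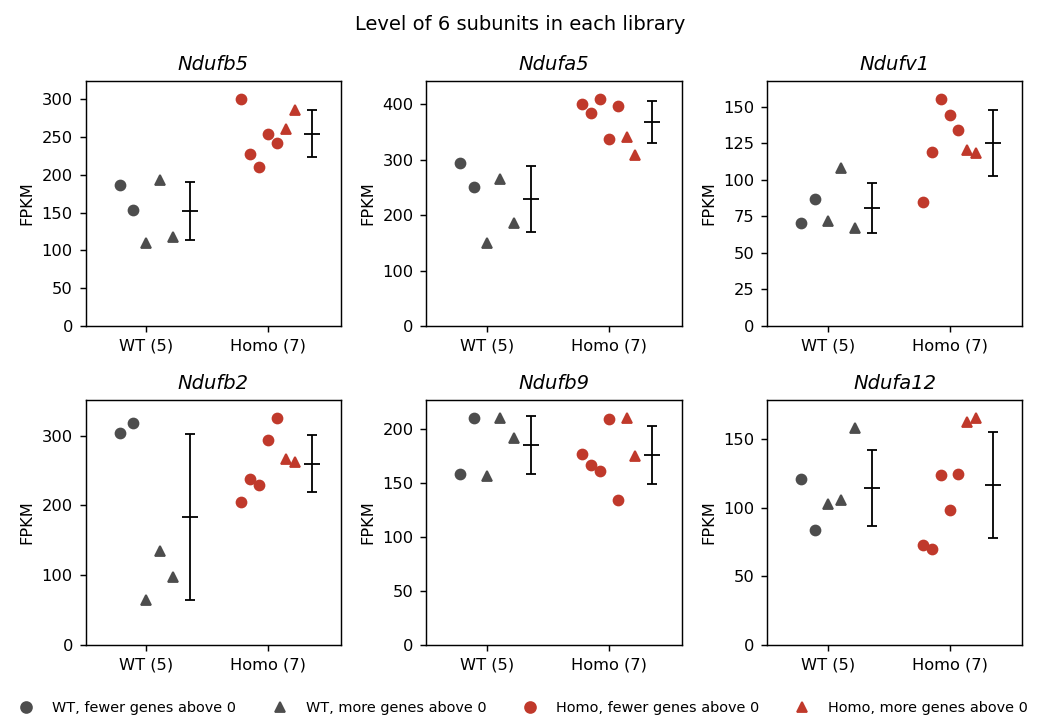
Level (FPKM, y axis) of 6 subunits in each WT and Homo library, circles for libraries with fewer and triangles for libraries with more genes above 0, with mean and SD at the right of each group. *Ndufb5* and *Ndufa5* do not overlap between genotypes, *Ndufb2* is high in WT 1 and WT 2 at 304 and 317 FPKM and low in the other WT libraries, and *Ndufb9* and *Ndufa12* overlap throughout.

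The N module takes up electrons from NADH. Of its 8 members 7 were higher in Homo, with a median log2 fold change of 0.44, and 3 had an unadjusted p under 0.05 (3.05% of all genes tested). This count was 1 without WT 3 (1.77% of all genes) and 6 without WT 1 (3.91%). *Ndufv1*, which carries the NADH site and the flavin, had 70.1, 87.1, 71.7, 108 and 67.2 FPKM in WT 1 to 5 and 84.5 to 155 FPKM in Homo (median 120). All Homo libraries but Homo 1 were above the highest WT library. On the log2 scale Homo was higher by 0.62 (SE 0.18, limma adjusted p = 0.718, exact permutation p = 0.0076, within sets 0.0190), and by 0.67 and 0.56 within the sets with fewer and with more genes. *Ndufv1* lies at chr19:4007384-4012806 (minus strand).

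*Ndufs4*, the accessory subunit that braces the N module and whose loss causes Leigh syndrome, had 25.8, 26.9, 13.8, 28.0 and 25.9 FPKM in WT 1 to 5 and 23.8 to 44.2 FPKM in Homo (median 33.2). Apart from the low WT 3, the WT libraries were close together, and 6 Homo libraries lay above all of them. The log2 fold change was 0.49 (limma adjusted p = 0.898, exact permutation p = 0.0177, within sets 0.0524) and 0.31 without WT 3. *Ndufs6*, a zinc-binding accessory subunit, had 190, 169, 78.0, 147 and 113 FPKM in WT 1 to 5 and 160 to 256 FPKM in Homo (median 180). WT 1 and WT 2 lay within the Homo range, and the log2 fold change of 0.55 (limma adjusted p = 0.873, exact permutation p = 0.0290, within sets 0.105) became -0.02 and 1.19 within the sets with fewer and with more genes. It was also sensitive to WT 3, without which it was 0.36.

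The other N members overlapped more. *Ndufa2*, a small thioredoxin-like subunit and the most abundant of the module, had 224, 192, 96.5, 209 and 191 FPKM in WT 1 to 5 and 193 to 322 FPKM in Homo (median 226). WT 3 stood apart from the other WT libraries, and the log2 fold change of 0.42 (limma adjusted p = 0.898) was 0.20 without it. *Ndufs1*, the large core subunit with several iron-sulfur clusters and the least abundant of all members, had 18.2, 13.3, 12.1, 13.2 and 15.0 FPKM in WT 1 to 5 and 11.4 to 20.3 FPKM in Homo (median 16.8), with broad overlap. *Ndufa12*, the paralogue of the assembly factor *Ndufaf2*, had 121, 83.7, 103, 106 and 158 FPKM in WT 1 to 5 and 70.0 to 166 FPKM in Homo (median 124). Its log2 fold changes, -0.08 and 0.45 in the libraries with fewer and more genes, fell on either side of 0. *Ndufv2* and *Ndufv3* had log2 fold changes of 0.26 and 0.46, and of 0.12 and 0.23 without WT 3.

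The Q module carries electrons to ubiquinone, and all 8 members had a higher mean in Homo, with a median log2 fold change of 0.34. Of these, 3 had an unadjusted p under 0.05 (3.05% of all genes tested), 2 without WT 3 (1.77%), and *Ndufa5* had no overlap. The lists were also drawn with *Ndufa12* in the Q module and *Ndufa6* and *Ndufa7* in the N module. Drawn so, 6 of 7 Q members were higher, with a median of 0.23. Without WT 3 this was 4 of 7, with a median of 0.015. All 9 N members were then higher, with a median of 0.46 (0.23 without WT 3).

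*Ndufa6*, which docks the acyl carrier protein on the Q module, had 212, 162, 66.2, 107 and 117 FPKM in WT 1 to 5 and 138 to 225 FPKM in Homo (median 191). WT 1 and WT 2 overlapped with Homo, and WT 3, WT 4 and WT 5 lay below all Homo libraries. Homo was higher by 0.60 on the log2 scale (limma adjusted p = 0.887, exact permutation p = 0.0303, within sets 0.0476), or 0.38 without WT 3. *Ndufa9*, a reductase-like subunit near the membrane, had 50.6, 54.9, 18.0, 44.1 and 47.7 FPKM in WT 1 to 5 and 34.2 to 77.5 FPKM in Homo (median 40.5), and its log2 fold change of 0.23 was -0.05 without WT 3. *Ndufs8*, an iron-sulfur core subunit, had 93.0, 51.9, 42.0, 65.2 and 55.3 FPKM in WT 1 to 5 and 46.3 to 102 FPKM in Homo (median 64.4), again with overlap. *Ndufs3*, *Ndufa7* and *Ndufs7* had log2 fold changes of 0.37, 0.31 and 0.14, and of 0.33, 0.16 and -0.03 without WT 3.

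The membrane arm is the proton pump, and its nuclear subunits are all accessory. Here 19 of 20 members were higher in Homo, with a median log2 fold change of 0.38. Of these, 7 had an unadjusted p under 0.05, against 3.05% of all genes tested. The count was 2 without WT 3 (1.77% of all genes) and also 2 without WT 5 (2.76%). The medians of the 4 parts, named by the mitochondrially encoded subunit they surround, were 0.41 at ND1, 0.32 at ND2, 0.59 at ND4 and 0.35 at ND5. Without WT 3 these medians were 0.23, 0.15, 0.38 and 0.18. In the libraries with fewer genes above 0 they were -0.03, -0.08, 0.39 and -0.19. The order of the parts was not tested.

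At the ND1 part, *Ndufa13*, also known as GRIM-19, had 163, 173, 72.7, 134 and 114 FPKM in WT 1 to 5 and 151 to 203 FPKM in Homo (median 191). WT 1 and WT 2 overlapped with Homo, and the other WT libraries lay below it. The log2 fold change was 0.56 (SE 0.20, limma adjusted p = 0.818, exact permutation p = 0.0063, within sets 0.0381), 0.36 without WT 3. *Ndufa3*, a small subunit with a membrane helix, was the most abundant member, with 500, 510, 297, 472 and 324 FPKM in WT 1 to 5 and 409 to 687 FPKM in Homo (median 538). Its genotypes overlapped (log2 fold change 0.37, limma adjusted p = 0.901). *Ndufa1* and *Ndufa8* had log2 fold changes of 0.45 and 0.23, and of 0.21 and 0.04 without WT 3.

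At the ND2 part, *Ndufa11*, a membrane subunit at the contact with complex III in supercomplexes, had 43.2, 25.6, 13.5, 24.3 and 16.7 FPKM in WT 1 to 5 and 28.3 to 42.7 FPKM in Homo (median 32.7). WT 1 was the highest of all 12 libraries, and the other WT libraries lay below every Homo library. Its log2 fold change was 0.53 (limma adjusted p = 0.898, exact permutation p = 0.0556, within sets 0.133). *Ndufs5* and *Ndufc1* had log2 fold changes of 0.35 and 0.32 (0.15 and 0.18 without WT 3), and *Ndufa10* and *Ndufc2* of 0.08 and 0.05 (0.0046 and -0.06).

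At the ND4 part, where *Ndufb5* sits, *Ndufb10*, a subunit facing the intermembrane space, had 82.6, 159, 96.5, 162 and 91.7 FPKM in WT 1 to 5 and 96.8 to 218 FPKM in Homo (median 182). Homo 3 was low, beside the 3 lowest WT libraries, and the log2 fold change was 0.60 (limma adjusted p = 0.862, exact permutation p = 0.0391, within sets 0.0524). *Ndufb4* had 47.9, 29.0, 17.5, 54.2 and 25.8 FPKM in WT 1 to 5 and 41.4 to 62.6 FPKM in Homo (median 45.6). WT 1 and WT 4 lay within the Homo range, and the log2 fold change of 0.59 (limma adjusted p = 0.898, exact permutation p = 0.0417, within sets 0.114) was 0.38 without WT 3. *Ndufb11* and *Ndufb6* had log2 fold changes of 0.43 and 0.19, and of 0.23 and 0.11 without WT 3.

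At the ND5 part, *Ndufb2*, a small subunit with a membrane helix, had 304, 317, 64.2, 135 and 97.1 FPKM in WT 1 to 5 and 205 to 326 FPKM in Homo (median 262). WT 1 and WT 2 were as high as Homo, and WT 3, WT 4 and WT 5 were far below all Homo libraries. The log2 fold change was 0.75 (SE 0.34, limma adjusted p = 0.898, exact permutation p = 0.0770, within sets 0.224), or 0.45 without WT 3. *Ndufb7*, a disulfide-bonded subunit of the intermembrane space, had 123, 97.4, 57.3, 82.0 and 70.7 FPKM in WT 1 to 5 and 91.1 to 213 FPKM in Homo (median 109). Homo 1 and Homo 2 were above the rest, and the log2 fold change was 0.57 (limma adjusted p = 0.898, exact permutation p = 0.0669, within sets 0.119).

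*Ndufb9*, a protein of the LYR family that holds an acyl carrier protein at the tip of the arm, had 158, 210, 156, 210 and 191 FPKM in WT 1 to 5 and 134 to 210 FPKM in Homo (median 175). Its levels overlapped fully (log2 fold change -0.07, SE 0.16, limma adjusted p = 0.975). *Ndufab1*, the acyl carrier protein itself, which also serves lipoic acid and iron-sulfur cluster synthesis, had 158, 146, 96.2, 130 and 97.6 FPKM in WT 1 to 5 and 114 to 200 FPKM in Homo (median 150), a log2 fold change of 0.31 with overlap. *Ndufb3* and *Ndufb8* had log2 fold changes of 0.39 and 0.07, and of 0.14 and -0.07 without WT 3. *Ndufa4*, once assigned to complex I and now placed in complex IV, had 565, 511, 224, 398 and 256 FPKM in WT 1 to 5 and 381 to 802 FPKM in Homo (median 544). It overlapped as well (log2 fold change 0.52, limma adjusted p = 0.902, exact permutation p = 0.101, within sets 0.190).

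Members also differed in how they followed the rest of the complex across the 12 libraries. The median correlation of a pair of members was 0.55, a description over libraries that share genotype and set. *Ndufa13*, *Ndufb2* and *Ndufa11* followed the mean of the other members most closely (r of 0.95, 0.93 and 0.93), and *Ndufa12* and *Ndufb9* did not follow it (r of -0.02 and 0.02). Relative to that mean, the log2 difference between genotypes was 0.40 for *Ndufb5*, 0.39 for *Ndufb2* and 0.35 for *Ndufa5*, and -0.46 for *Ndufb9* and -0.40 for *Ndufa12*. On this relative scale the genotypes overlapped for every member.

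Spread of the members between mice was larger in WT. The median coefficient of variation over members was 30.6% in WT and 18.2% in Homo, and it was larger in WT for 30 of 37 members. The share over all genes tested is not given here, so this spread is not shown to be particular to the members. For 30 of 37 members the lowest value came from WT 3, against 14.8% of all genes tested. The mean log2 level of the members was 7.12, 6.95, 6.11, 6.83 and 6.55 in WT 1 to 5 and 6.96 to 7.18 in Homo. WT 3 and WT 5 were the lowest libraries in the mean of each module too.

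Module means moved together. The mean log2 level was 6.21 ± 0.32 in WT and 6.57 ± 0.15 in Homo for the N module, 6.67 ± 0.41 and 7.04 ± 0.11 for the Q module, and 6.84 ± 0.41 and 7.22 ± 0.10 for the membrane arm (SD, n = 5 and 7). The differences of 0.37, 0.37 and 0.38 were close in size to the WT SD, and without WT 3 they were 0.23, 0.22 and 0.22. With *Ndufa12* in the Q module and *Ndufa6* and *Ndufa7* in the N module, the differences were 0.43 for N and 0.29 for Q. Without WT 3 these 2 were 0.27 and 0.17.

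**Figure D3:**
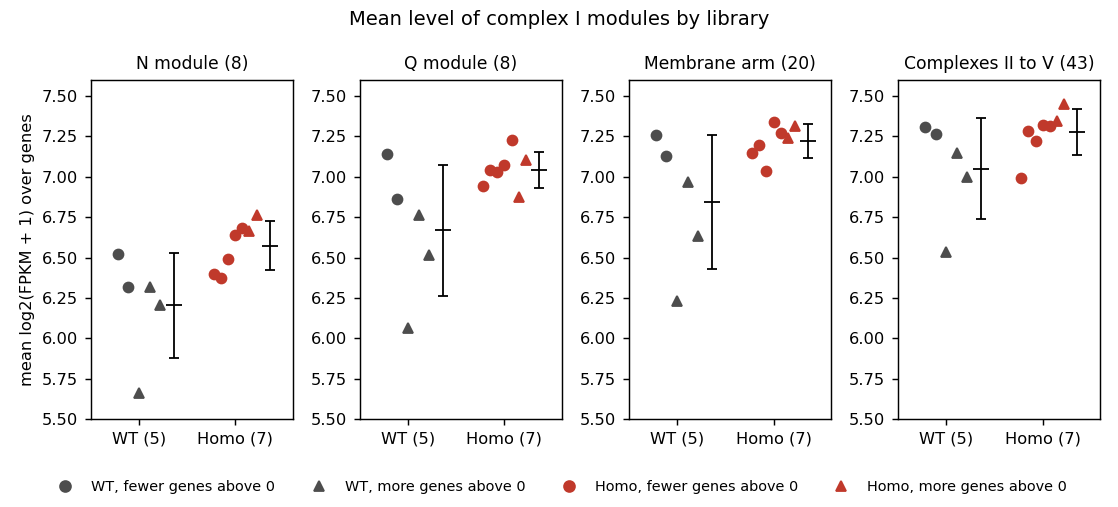
Mean log2(FPKM + 1) over the genes of 3 complex I modules and of nuclear complexes II to V (y axis) in each library, circles for libraries with fewer and triangles for libraries with more genes above 0, with mean and SD at the right of each group. In every panel WT 3 is lowest, and WT 1 and WT 2 lie within or near the Homo range.

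The difference between genotypes was not alike in the 2 library sets. In the 5 libraries with more genes, all 37 members were higher in Homo, against 64.6% of all genes tested, with a median log2 fold change of 0.57, and 26 did not overlap, against 16.3% of all genes tested. In these libraries the median log2 fold change of all genes was itself 0.13, and in the libraries with fewer genes it was -0.08, so part of the contrast between the sets was shared by all genes. In the 7 libraries with fewer genes, 17 of 37 members were higher, against 40.1% of all genes tested, and the members' median was -0.02. Here 4 members were higher with an unadjusted p under 0.05, against 1.49% of all genes tested, among them *Ndufb5*, *Ndufa5* and *Ndufv1*. In this set 3 members lay wholly above WT and 1 wholly below, against 390 and 920 of 14017 genes tested. The member below was *Ndufb8*, with 446 and 439 FPKM in WT 1 and WT 2 and 324 to 410 FPKM in Homo 1 to 5. *Ndufs7* and *Ndufb8* had log2 fold changes of -0.47 and -0.36 there, against 0.47 and 0.53 in the other set.

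With library set as a term in the model, 7 members had an unadjusted p under 0.05 and were higher in Homo, against 2.66% of all genes tested, and the median log2 fold change was 0.30. A term for the interaction of genotype and set had an unadjusted p under 0.05 for 9 members, against 5.18% of all genes tested, and an adjusted p under 0.05 for 0 (limma, smallest 0.726). *Ndufb2* had the smallest interaction p of the members, 0.000777 before adjustment, with log2 fold changes of -0.29 and 1.47 in the sets with fewer and more genes. The sets held 2 WT and 5 Homo libraries, and 3 WT and 2 Homo libraries. WT 3 and WT 5 were both in the second set, as was WT 4, whose member mean lay nearer to that of WT 2.

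**Figure D4:**
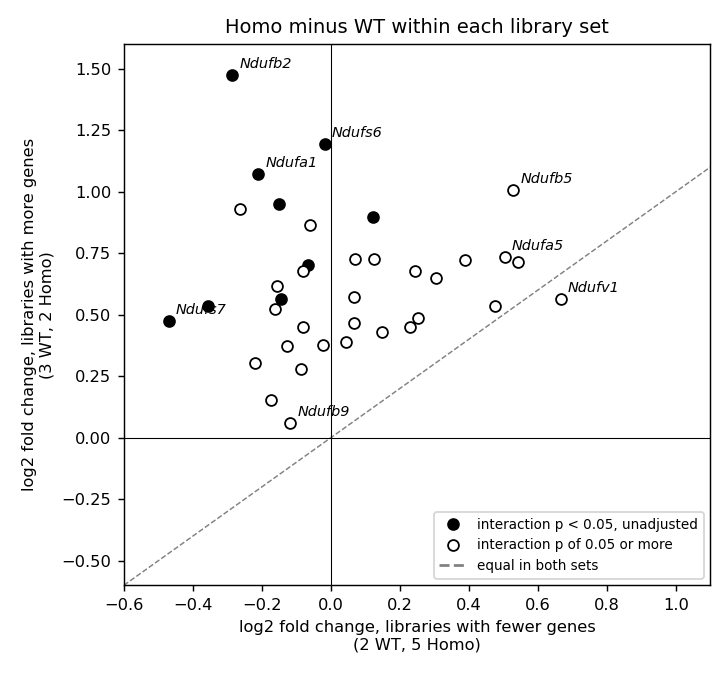
Log2 fold change (Homo minus WT) of 37 subunits in the libraries with fewer genes above 0 (x axis) and in those with more (y axis), filled where the unadjusted interaction p was under 0.05. All points lie above 0 on the y axis, 17 lie to the right of 0 on the x axis, and *Ndufb5*, *Ndufa5* and *Ndufv1* are well above 0 on both.

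Complex I transcripts are short, with a median of 908 bases (419 to 4371) against 2800 for genes tested, so a length index was set beside them. It is the median log2 level of 753 protein-coding genes under 1000 bases minus that of 3996 genes of 4000 bases or more, members left out. It was 1.503, 1.63, 0.96, 1.44 and 0.93 in WT 1 to 5 and 1.27 to 1.84 in Homo (exact permutation p = 0.187). WT 3 and WT 5 were lowest in the index and in the members' mean. Over the 12 libraries the index and the mean had r = 0.73 and rho = 0.54. Without WT 3 and WT 5, the 2 libraries farthest from the median index, r was 0.09. Leaving them out narrows the range of both values and lowers the members' median log2 fold change from 0.39 to 0.12. The lower r is therefore a description only.

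Members shorter than 1000 bases (21) had a median log2 fold change of 0.42 and the other 16 one of 0.34. After each library's trend with transcript length was removed, 13 members had an unadjusted p under 0.05 and were higher in Homo, against 3.47% of all genes tested, with a median of 0.33. Processed pseudogenes named for *Ndufa11*, *Ndufab1*, *Ndufb4* and *Ndufs6* were at or below 0.137 FPKM on average.

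**Figure D5:**
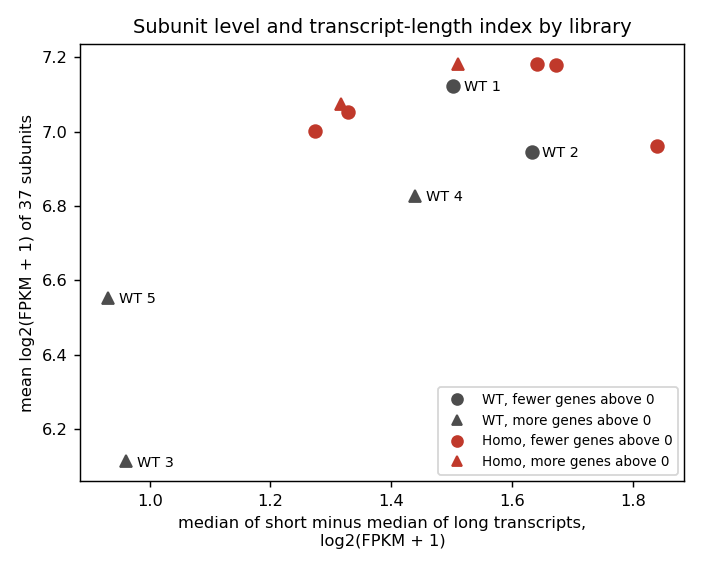
Mean log2(FPKM + 1) of 37 subunits (y axis) against the short-minus-long transcript index (x axis, log2) in each library, coloured by genotype, circles for libraries with fewer and triangles for libraries with more genes above 0. WT 3 and WT 5 lie apart at the left, with an index of 0.96 and 0.93, and the other 10 libraries show no clear slope.

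Assembly factors build complex I but are not part of it. Of 18 tested, 15 had a higher mean in Homo, with a median log2 fold change of 0.14. With an unadjusted p under 0.05, 3.05% of all genes tested were higher and 2.5% lower. Of the 18 factors, 0 were higher and 1 was lower. This was *Tmem126b*, a membrane protein of the assembly intermediate complex, with 14.7, 19.5, 16.6, 12.3 and 10.7 FPKM in WT 1 to 5 and 5.14 to 14.5 FPKM in Homo. Its log2 fold change was -0.74 (SE 0.27, limma adjusted p = 0.853, exact permutation p = 0.0290), opposite in sign to that of most subunits. The difference lay in the libraries with fewer genes, with WT 1 and WT 2 above Homo 1 to 5 (5.14 to 11.0 FPKM). In the libraries with more genes, Homo 6 and Homo 7 (12.7 and 14.5 FPKM) lay within the range of WT 3 to 5 (10.7 to 16.6 FPKM). The highest was *Ecsit*, of the same intermediate, at 0.62 (limma adjusted p = 0.899). The 6 mitochondrially encoded subunits tested were all higher in Homo, by 0.24 to 0.93 on the log2 scale (median 0.40), and 4 of 6 were higher after quantile normalization, with a median of 0.17. Leaving out WT 3 brought their median to 0.27, with all 6 still higher. By library set, their median was 0.014 where fewer genes were above 0 (4 of 6 higher) and 0.72 where more were (6 of 6 higher).

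Of 43 nuclear subunits of complexes II to V found and tested, 35 were higher in Homo, with a median log2 fold change of 0.28. An unadjusted p under 0.05 was reached by 7 of these subunits (3.05% of all genes tested), and by 4 without WT 3 (1.77%). Their median was 0.13 without WT 3, and -0.06 and 0.57 within the sets with fewer and with more genes. The mean log2 level of the complex I members minus that of complexes II to V was -0.34 ± 0.10 in WT and -0.18 ± 0.10 in Homo (SD). This gap differed by 0.15 between genotypes and by 0.13 without WT 3, and by 0.10 and 0.13 within the sets with fewer and with more genes, a description with no test.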

How the data were processed

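ARC RNA from 5 WT and 7 Homo mice was measured by RNA-seq, with groups taken from the sample titles. The authors deposited 1 table of FPKM values for 38283 genes. The submitters' processing notes name TopHat2 2.0.8, Cufflinks 2.2.1 and GRCm38 without saying what each did, and a test for these libraries is not given in the sources used here. Read totals are unknown, and FPKM summed to between 13306600 and 21188500 per library, over 95.9% of it in 10 genes, so depth and counting error could not be given. The members and lists were chosen with earlier results of these data known.

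FPKM are not counts, so log2(FPKM + 1) was fitted with limma 3.58.1 in R 4.3.3 (trend, robust), with genotype as the only term. The fit covered 14017 genes with a mean of at least 1 FPKM, with Benjamini-Hochberg adjustment. A check on simulated data used noise independent between genes and changes larger than that of any member. It therefore does not cover members that move together by smaller amounts. A fold change in log2(FPKM + 1) understates that of low genes. Single members were tested by exact permutation (two-sided), over all assignments of the 12 libraries to genotypes or the 210 that keep library sets. The exact p are not adjusted, and most are given for members picked by their limma p or overlap in these same libraries. Modules and lists are described by counts, medians and SDs. A further member is counted in the totals but is not reported here by itself. Values per library are given for other members named in the paper for the ARC, members with an unadjusted p under 0.05 or no overlap, the most abundant, least abundant and lowest-fold member of each module, *Ndufa4* and *Ndufab1*. *Ndufs7* and *Ndufb8* are named in addition, chosen once their values were known. Transcript lengths are those of the APPRIS principal transcript in GENCODE M21, which held 97.5% of the genes tested, or else of the longest transcript. Library pairs had Spearman correlations of 0.762 to 0.854, so none looked deposited more than once. Litter and preparation day are not given in the sources used here. Alternatives covered the pseudocount, the filter, scaling, library sets, transcript length, the replicate block and leaving out each library.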

Additional observations from a re-analysis of the deposited data

Results flagged for a closer look

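In the 82 groups of values examined, 5 members had a library far from the rest of its genotype by Dixon's criterion, which chance alone flags in about 1 in 20 groups. In WT 3, *Ndufa2* was at 96.5 FPKM against 191 to 224 in the other WT libraries, and *Ndufs4* was at 13.8 FPKM against 25.8 to 28.0. *Ndufb6* was at 60.4 FPKM in Homo 2 against 90.4 to 102 in the other Homo libraries. *Ndufs5* was at 98.0 FPKM in Homo 3 against 117 to 130. *Ndufs8* was the exception in direction, at 102 FPKM in Homo 4 against 46.3 to 68.3.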

How the results depend on the processing

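The count of members with an unadjusted p under 0.05, 13 as reported, was 7 with mitochondrially encoded genes left out of the scaling (2.21% of all genes tested), 7 with library set as a covariate (2.66%), 4 in the libraries with fewer genes above 0 (1.49%), 8 with the length trend removed and library set as a covariate (3.01%), and 5 to 21 when 1 library was left out (1.77% to 3.91%). It was 18 with array weights (4.13%), 16 with upper-quartile scaling (3.88%), 12 in the libraries with more genes (4.04%) and 10 with no variance trend (2.77%). It was 3 with WT 3 and WT 5 both left out (1.68%), an alternative chosen after seeing the data. The count without overlap, 2 as reported, was 1 with mitochondrially encoded genes left out, 26 in the libraries with more genes and 2 to 4 when 1 library was left out (4 without Homo 1). Among all genes tested, such a separation held for 18 genes as reported. The corresponding numbers were 12 of 13983 genes after the mitochondrial exclusion, 2290 of 14017 for the set with more genes and 390 of 14017 for the set with fewer. Dropping 1 library gave 24 (WT 3) to 69 (WT 1) genes, and 40 for Homo 1, so this background rose too. The members' median log2 fold change, 0.39 as reported, was 0.12 without WT 3 and WT 5. In the libraries with fewer genes it was -0.024, with the N module at -0.021, the membrane arm at -0.065, *Ndufb2* at -0.29, *Ndufs6* at -0.018, *Ndufa9* at -0.16, *Ndufab1* at -0.068, *Ndufs1* at -0.024 and *Ndufs8* at -0.086. *Ndufa9* was also -0.048 without WT 3 and -0.063 without WT 3 and WT 5, and *Ndufs8* -0.059 without both. *Ndufa12*, near 0 as reported, was 0.0015 with upper-quartile scaling, 0.043 with mitochondrially encoded genes left out, 0.13 with array weights, 0.16 with the set covariate, 0.45 in the libraries with more genes, 0.090 with length and set, -0.11 to 0.12 when 1 library was left out (above 0 without WT 1, WT 5, Homo 1, Homo 2 or Homo 4), and 0.12 without WT 3 and WT 5. *Ndufb9* was 0.058 in the libraries with more genes. The smallest adjusted p of a named member in any alternative was 0.361. For settings with fewer libraries, smaller groups are part of the construction, and otherwise the cause was not tested.

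With a replicate block on WT and Homo mice of the same number, 9 members were higher with an unadjusted p under 0.05, against 3.14% of all genes tested. The median log2 fold change was 0.34, against -0.043 over all genes tested. Deviations of same-numbered mice correlated between -0.054 and 0.029, so the numbers were not taken to pair the mice. FPKM without read counts limit what can be said of low members such as *Ndufs1*.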
